A study of Drosophila melanogaster with 8 samples.

Results

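The genes described here encode voltage-gated and calcium-activated potassium channels of Drosophila melanogaster: sei (seizure, CG3182), eag (CG10952), Elk (CG5076), Sh (Shaker, CG12348), Shal (CG9262), Shab (CG1066), Shaw (CG2822), slo (CG10693), SK (CG10706) and KCNQ (CG33135). These 10 genes, among 12082 rows of the count table that name a gene, were chosen by name as a channel family after the mutant-to-control difference in these same libraries had been seen. Their values in that comparison are therefore a description, and the adjusted p-values printed for them come from the fit of all genes and lend no independent support. All 10 passed the filter on low counts.

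RNA was sequenced from whole females, 1 week old, in 4 control and 4 mutant libraries. The controls have the genotype btl>DHR78 and the mutants btl>DHR78; DHR78[1]/[3], so that both carry the transgene for the nuclear receptor Hr78 (DHR78) under the driver of btl, a gene of the tracheal FGF receptor, and the mutants, labelled as rescued, also carry a pair of alleles of the receptor gene. Females were fed 8% yeast and 9% sugar, and each library pools RNA from a pair of 8 collections of 12 females per genotype, so that no value belongs to a single animal.

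Potassium channels let potassium leave the cell and so bring the membrane potential back towards rest after excitation. In flies they are best known from neurons and muscle, where several of the genes, among them Sh, eag, slo and sei, were found through behavioural mutants. The ether-a-go-go family (eag, Elk and the ERG-type channel sei) shapes repolarization, Sh and Shal carry fast inactivating currents, Shab and Shaw carry slowly or barely inactivating ones, slo and SK open in response to calcium, and KCNQ carries a slow current that restrains repeated firing. Flies with mutant sei are known to seize and become paralysed when warmed.

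The row of Hr78 was at 118 to 127 CPM (the usual count unit scaled to library size, here after TMM scaling) in the controls and at 69.3 to 73.4 CPM in the mutants. Both genotypes carry the transgene, and the part of its reads in this row was not tested. Library totals were 19544675 to 33054191 counts, and 3 counts, the level taken as the floor, corresponded to 0.0916 to 0.155 CPM. Mutant replicate 2 stood apart in male tract and testis markers. Of 19 such genes, the 17 kept for low levels in these controls summed to 175 CPM there and to 0.158 to 0.929 CPM in the other 7 libraries. All 19 summed to 240 CPM there and to 38.0 to 44.6 CPM in the other 7 libraries. Neuron, glia, muscle and ovary markers were all above 0 in every library. In RNA of whole animals, fewer cells of a type and less RNA per cell cannot be told apart.

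Transcripts of sei were 2.68-fold higher in the mutant, Shal transcripts were lower, and the other 8 channel genes were not called in either direction. The sei row held 188, 171, 174 and 164 counts in control replicates 1 to 4, or 7.02, 7.72, 8.51 and 8.47 CPM. In mutant replicates 1 to 4 it held 732, 584, 516 and 478 counts, or 22.3, 21.4, 20.4 and 20.7 CPM. Every mutant library lay far above every control library, and the gap between the groups was wider than the spread within either one. The control mean was 7.93 ± 0.708 CPM and the mutant mean 21.2 ± 0.878 CPM (SD, n = 4 each). The log2 fold change was 1.42 (SE 0.08, 95% interval 1.25 to 1.60), and its adjusted p was 5.31e-06 (edgeR quasi-likelihood test, Benjamini-Hochberg over 10525 genes). A higher log2 fold change was found for 111 of those 10525 genes. Without mutant replicate 2 the log2 fold change of sei was 1.42, and leaving out any 1 library gave 1.37 to 1.46.

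**Figure D1:**
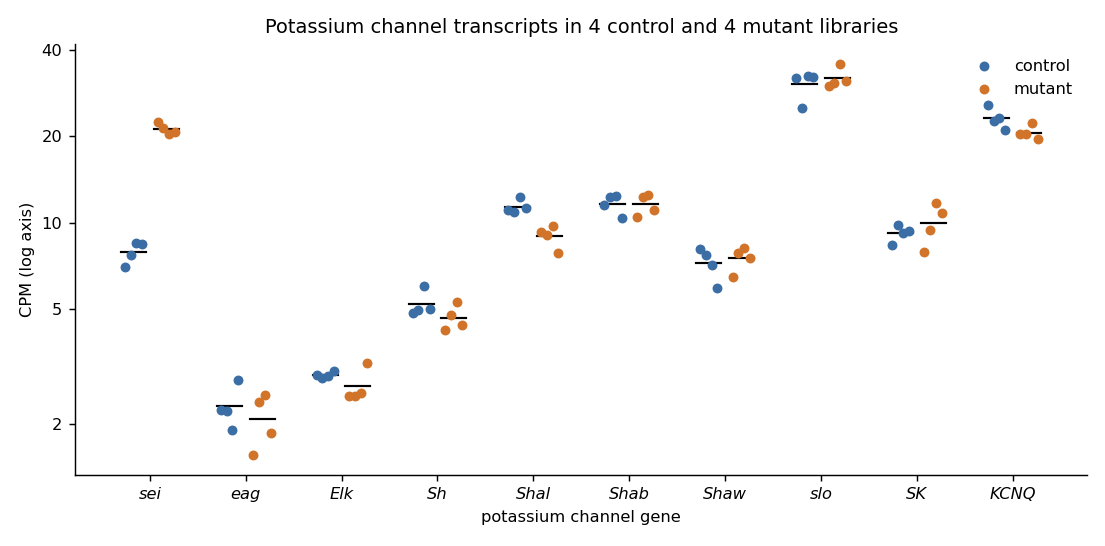
CPM (log axis) of the 10 potassium channel genes, with 1 point per library (blue control, orange mutant) and a black line at each mean. The mutant points of sei (20.4 to 22.3 CPM) lie clear of its control points (7.02 to 8.51 CPM), those of Shal lie just below its control points, and the other 8 genes overlap.

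The relatives of sei in the ether-a-go-go family were not called. The row of eag, which encodes the founding channel of the family, was at 2.24, 2.21, 1.91 and 2.84 CPM in control replicates 1 to 4 and at 1.56, 2.38, 2.53 and 1.86 CPM in the mutants. These groups overlap over most of their range. Elk, the eag-like channel gene, was at 2.95, 2.89, 2.93 and 3.05 CPM in the controls and at 2.50, 2.49, 2.57 and 3.24 CPM in the mutants. The lower mutants of Elk sat below the controls, and mutant replicate 4 sat above all of them. The log2 fold changes were -0.14 for eag (95% interval -0.59 to 0.30) and -0.13 for Elk (-0.45 to 0.18), so that intervals of this width include changes of either sign but not one of the size of sei. Each library held only 39 to 65 counts of eag. The ratio of sei to the sum of eag and Elk (in CPM) was 1.35 to 1.76 in the controls and 4.00 to 5.50 in the mutants.

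Of the genes of the Shaker-related families, Shal was lower in the mutant and Sh, Shab and Shaw were not called. Shal encodes the fast inactivating channel of neuronal cell bodies and dendrites. It was at 11.1, 10.9, 12.3 and 11.3 CPM in control replicates 1 to 4 and at 9.31, 9.05, 9.75 and 7.87 CPM in mutant replicates 1 to 4. All mutants lay below all controls, although the nearest libraries of the 2 groups were only about as far apart as libraries within a group. The mutant mean was 79.0% of the control mean (9.00 ± 0.803 against 11.4 ± 0.616 CPM), and the log2 fold change was -0.34 (SE 0.09, adjusted p 0.0227, edgeR). The call was lost without control replicate 3 (adjusted p 0.0654), without mutant replicate 4 (0.0551) and with an offset for exonic length (0.0795), and it was kept without mutant replicate 2 (0.0490, edgeR).

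Sh, which encodes the classical fast inactivating channel, was at 4.85 to 6.01 CPM in the controls and 4.24 to 5.29 CPM in the mutants, with a log2 fold change of -0.15 (95% interval -0.42 to 0.11). Shab, which encodes the main delayed rectifier, was at 10.4 to 12.4 CPM in the controls and 10.5 to 12.5 CPM in the mutants, with a log2 fold change of -0.01 (-0.21 to 0.19). Shaw was at 5.94 to 8.10 CPM and 6.50 to 8.17 CPM, with a log2 fold change of 0.05 (-0.21 to 0.31). In these 3 genes the libraries of the genotypes were interleaved. The table holds a further row under an older number of Shab, CG9965, which was at 4.96 to 7.09 CPM in the controls and 4.36 to 5.41 CPM in the mutants (log2 fold change -0.24, adjusted p 0.225, edgeR). With both Shab rows summed the log2 fold change was -0.08. The sign of the small values of eag, Sh and Shab turned with an offset for exonic length.

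The calcium-activated channels and KCNQ were not called. The gene of the large-conductance channel, slo, had the highest CPM of the family, at 31.9, 25.1, 32.4 and 32.3 CPM in the controls and 30.0, 30.6, 35.8 and 31.1 CPM in the mutants. Control replicate 2 was the only library below the range of the others, and without it the log2 fold change of 0.07 (95% interval -0.13 to 0.26) became -0.01. SK, the small-conductance channel gene, was at 8.40 to 9.84 CPM in the controls and spread more widely in the mutants, from 7.91 to 11.7 CPM, with a log2 fold change of 0.11 (-0.16 to 0.38). KCNQ was at 21.1 to 25.7 CPM in the controls and 19.5 to 22.3 CPM in the mutants. Its log2 fold change was -0.17 (adjusted p 0.136, edgeR), and its unadjusted 95% interval of -0.33 to -0.01 lay below 0.

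Read over the family, 1 of 10 members was called higher, where 8.46% of all tested genes were, and 1 was called lower, where 11.1% were. The same 2 members were the only ones whose genotypes did not overlap, sei with all mutants above all controls (11.7% of all tested genes) and Shal with all mutants below (13.2%). Since the family was chosen with this comparison in view, nothing is read from these shares. The median log2 fold change was -0.07 over the members and 0.01 over all tested genes.

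Levels per exonic length put sei at a different place in the family in each genotype. Per kb of exons in the Release 6 annotation, KCNQ was highest in the control at 5.96 ± 0.496 CPM per kb. It was followed by slo at 3.00 ± 0.350, Shal at 2.47 ± 0.134 and sei at 2.42 ± 0.216 CPM per kb. The control levels of Shal and sei differed by less than their SD, so their order is not resolved. Shaw at 1.45, Shab at 1.03, SK at 0.845, Elk at 0.552, Sh at 0.228 and eag at 0.216 CPM per kb came after them, with the last 2 within their SD of each other. Shab is given here by its row CG1066 alone, over all exons of the gene. Its further row, CG9965, was at 0.507 (control) and 0.429 (mutant) CPM per kb of the same exons, so the order of Shab and Shaw is not resolved. In the mutant sei was highest at 6.47 ± 0.268 CPM per kb, above KCNQ at 5.32 ± 0.307, slo at 3.14 ± 0.262 and Shal at 1.95 ± 0.174 CPM per kb.

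As a share of the summed level per kb of the 10 genes, sei made up 11.4% to 14.6% in the control libraries and 27.8% to 32.8% in the mutant libraries. The other 9 genes together were at 15.1 to 16.6 CPM per kb in the controls and 14.0 to 16.2 CPM per kb in the mutants, ranges that overlap. These sums and shares leave out the further row of Shab, CG9965. The annotated exons of genes with many transcripts, such as Sh with 17 and slo with 23, are longer than any 1 transcript, which lowers their level per kb. With the median transcript length in place of all exons, Sh moved from 0.228 to 1.87 CPM per kb in the control. With Shab by its row CG1066 alone, sei was again the fourth in the control and the first in the mutant on that scale. Its mutant level of 7.70 CPM per kb was then close to the 7.49 CPM per kb of KCNQ. The ranks with both rows of Shab were not tested. gammaSnap1, which overlaps exons of sei on the opposite strand as described below, was at 24.1 (control) and 25.3 (mutant) CPM per kb of exons. Any part of its reads in the row of sei, and so in these levels and shares, was not tested.

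**Figure D2:**
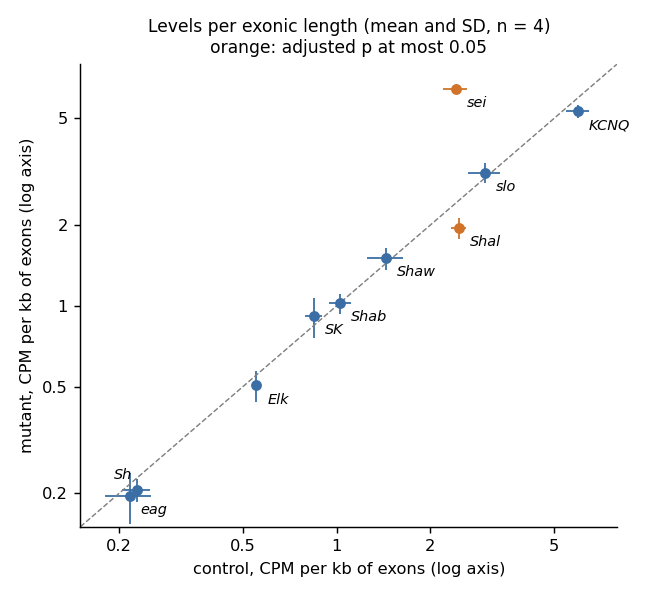
Mean level per kb of annotated exons in the control (x axis) and the mutant (y axis) on log axes, with bars of 1 SD (n = 4 each) and a dashed line of equal levels. Orange marks sei and Shal, the genes that passed an adjusted p of 0.05 over all genes. sei lies above the line at 2.42 against 6.47 CPM per kb, Shal lies a little below it, and the other 8 genes lie near it. Shab is shown by its row CG1066 alone.

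The gene of sei has measured neighbours that share its bases on the opposite strand, which matters because the use of strand in counting is not given in the sources used here. In the annotation, ppk29, which encodes a degenerin-type sodium channel subunit, shares 119 exonic bases with sei (3.63% of those of sei and 6.72% of its own). The pair is known in flies as sense and antisense transcripts. On the other side gammaSnap1, a gene of vesicle fusion, shares 359 exonic bases, which are 11.0% of those of sei and 32.1% of its own.

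Transcripts of ppk29 were also higher in the mutant. Its row was at 2.76, 2.75, 3.57 and 3.31 CPM in control replicates 1 to 4 and at 5.07, 5.17, 4.34 and 4.41 CPM in mutant replicates 1 to 4. All mutants lay above all controls. The log2 fold change of ppk29 was 0.62 (SE 0.13, adjusted p 0.00933, edgeR), and it was called in each of the 14 alternatives that kept its row. Where the exons overlap, reads of the 2 rows could be told apart only if strand was used in counting, which is not given. The rise in the mean of sei, 13.3 CPM, was larger than the whole ppk29 row in any mutant library. That row holds only reads assigned to ppk29, so its size sets no bound on ppk29 reads counted in the row of sei. The part of such reads was not tested. The ratio of sei to ppk29 was 2.38 to 2.80 in the controls and 4.14 to 4.69 in the mutants, with no overlap. With the 2 rows summed, the log2 fold change was 1.24.

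The row of gammaSnap1 did not pass the threshold, with a control mean of 27.0 ± 1.38 and a mutant mean of 28.2 ± 2.24 CPM (log2 fold change 0.06, adjusted p 0.539, edgeR). Of the 12 nearest measured genes, 6 on each side of sei, ppk29 was the only one called. The other 11 had log2 fold changes of -0.10 to 0.22, in a region that holds highly expressed genes such as eEF5 (a translation factor) and RpL12 (a ribosomal protein gene).

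**Figure D3:**
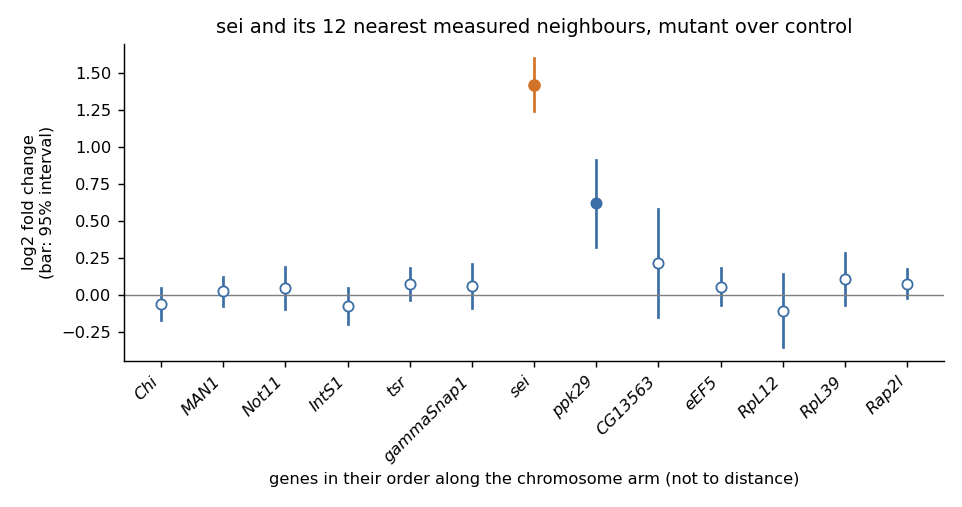
Log2 fold change (mutant over control) of sei (orange) and of the 6 measured genes on each side of it (blue), in their order along the chromosome arm, with 95% intervals. Filled points passed an adjusted p of 0.05 over all genes. sei stands at 1.42 and ppk29 at 0.62, and the intervals of the other 11 genes include 0.

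**Figure D4:**
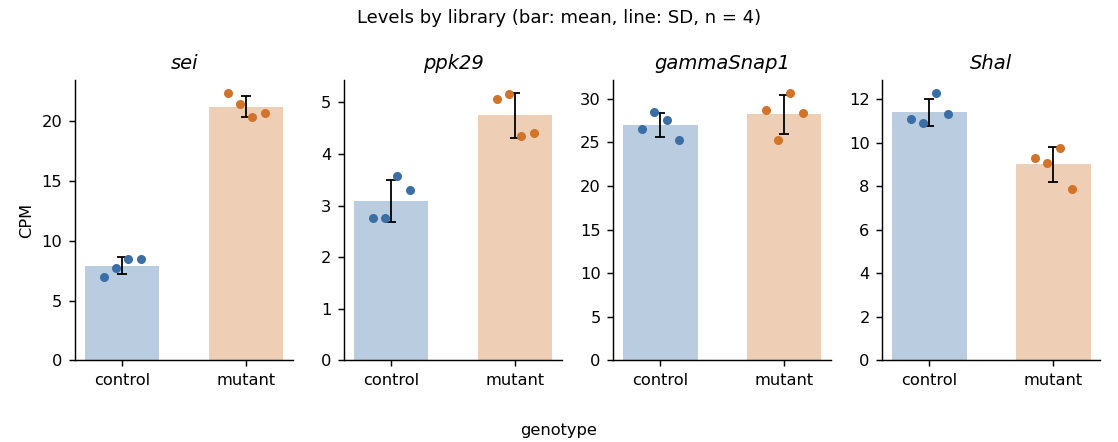
CPM by library in the control (blue) and the mutant (orange) for sei, for the overlapping genes ppk29 and gammaSnap1, and for Shal, with bars at the mean and lines of 1 SD (n = 4). The genotypes do not overlap in sei, ppk29 and Shal, whereas those of gammaSnap1 do.

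Annotated genes also lie within the bounds of Elk, KCNQ, Sh and Shab. CG6867, within Sh on the opposite strand, fell from 11.1 ± 1.34 to 6.34 ± 0.572 CPM (adjusted p 0.000838, edgeR), and it shares no exonic bases with Sh. Within KCNQ, mlt was at 152 ± 5.07 CPM (control) and 140.5 ± 5.72 CPM (mutant). CG18011, which shares exonic bases with KCNQ on the opposite strand, was at 19.3 ± 2.07 and 18.4 ± 1.37 CPM, and neither gene passed the threshold. The part of reads from such genes in the rows of the channels was not tested.

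Among other potassium channels, 3 of 16 tested rows fell and none rose (edgeR), where 11.1% of all tested genes were called lower and 8.46% higher. At an unadjusted p under 0.05 the counts were 4 lower and 1 higher, and DESeq2 called 2 lower and 0 higher. The gene of the inward rectifier Irk3 fell from 40.2 ± 4.02 to 25.1 ± 1.72 CPM, with 35.8 to 43.8 CPM in the controls and 23.0 to 26.9 CPM in the mutants. The groups did not overlap (log2 fold change -0.68, SE 0.08, adjusted p 0.000287, edgeR). The main row of SLO2 (CG34363), a gene of large channels related to slo, fell from 50.1 ± 3.60 to 38.4 ± 2.19 CPM (log2 fold change -0.38, adjusted p 0.00224, edgeR). A further row of SLO2 (CG12897) was at 4.19 and 3.36 CPM and did not pass. CG10864 fell from 0.713 ± 0.133 to 0.361 ± 0.0935 CPM (adjusted p 0.0292, edgeR). That call was lost without control replicate 1, control replicate 3 or mutant replicate 1, 2 or 3 (adjusted p 0.0519 to 0.0813, edgeR), with no filter on low counts (0.162) and with DESeq2 (0.0961).

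The rest of that list did not pass. Of the other inward rectifiers, Irk1 (CG6747) was at 67.7 and 65.9 CPM and Irk2 at 47.7 and 46.8 CPM (control and mutant means). Ork1, a leak channel gene with the most counts of the list, was at 96.1 to 144 CPM in the controls and 111 to 130 CPM in the mutants. sand, another leak channel gene, was at 5.82 to 7.08 CPM and 7.62 to 9.19 CPM, with all mutants above all controls and an adjusted p of 0.0565 (edgeR), and it passed with upper quartile scaling (0.0335). The remaining tested rows, Shawl, galene, Task6, Task7, Irk1 (CG13836), CG1688, CG34396 and CG42594 (CG32770), had log2 fold changes of -0.39 to 0.44. The median over the 16 rows was -0.04.

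Of 6 rows of hyperpolarization-activated and cyclic nucleotide-gated channels, 1 rose and none fell (edgeR), where 8.46% of all tested genes were called higher and 11.1% lower. At an unadjusted p under 0.05 the counts were 1 and 1, and DESeq2 called 0 in either direction. CG42260 rose from 0.514 ± 0.225 to 1.13 ± 0.377 CPM (adjusted p 0.0427, edgeR), with overlapping genotypes. The call of CG42260 was lost without control replicate 1, 2 or 3 or mutant replicate 2, 3 or 4 (adjusted p 0.0730 to 0.109, edgeR), with no filter (0.110) and with DESeq2 (0.0740). Ih, the pacemaker-type channel gene, was at 33.9 to 41.1 CPM in the controls and 31.2 to 36.8 CPM in the mutants. CngA, CngB and both rows of Cngl had log2 fold changes of -0.47 to -0.11 and did not pass, except that Cngl (CG9176) passed without mutant replicate 3 (adjusted p 0.0395, edgeR).

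None of 8 rows of potassium channel subunits and modulators passed with edgeR or DESeq2, and 2 were higher at an unadjusted p under 0.05 (edgeR). Over all tested genes 8.46% were called higher and 11.1% lower (edgeR). This list holds partners of the members described above: Hk, the beta subunit gene of Sh, was at 13.5 and 15.8 CPM in its larger row (CG32688), and qvr, whose product raises the current of Sh, at 47.2 and 53.4 CPM (control and mutant means). Slob, whose product binds the slo channel, was at 28.2 and 27.2 CPM in its larger row (CG6772). The log2 fold changes of the list, which also holds dysc and Slip1, lay between -0.09 and 0.22. With an offset for exonic length, Hk (CG32688) and qvr passed (adjusted p 0.00877 and 0.0349, edgeR).

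**Figure D5:**
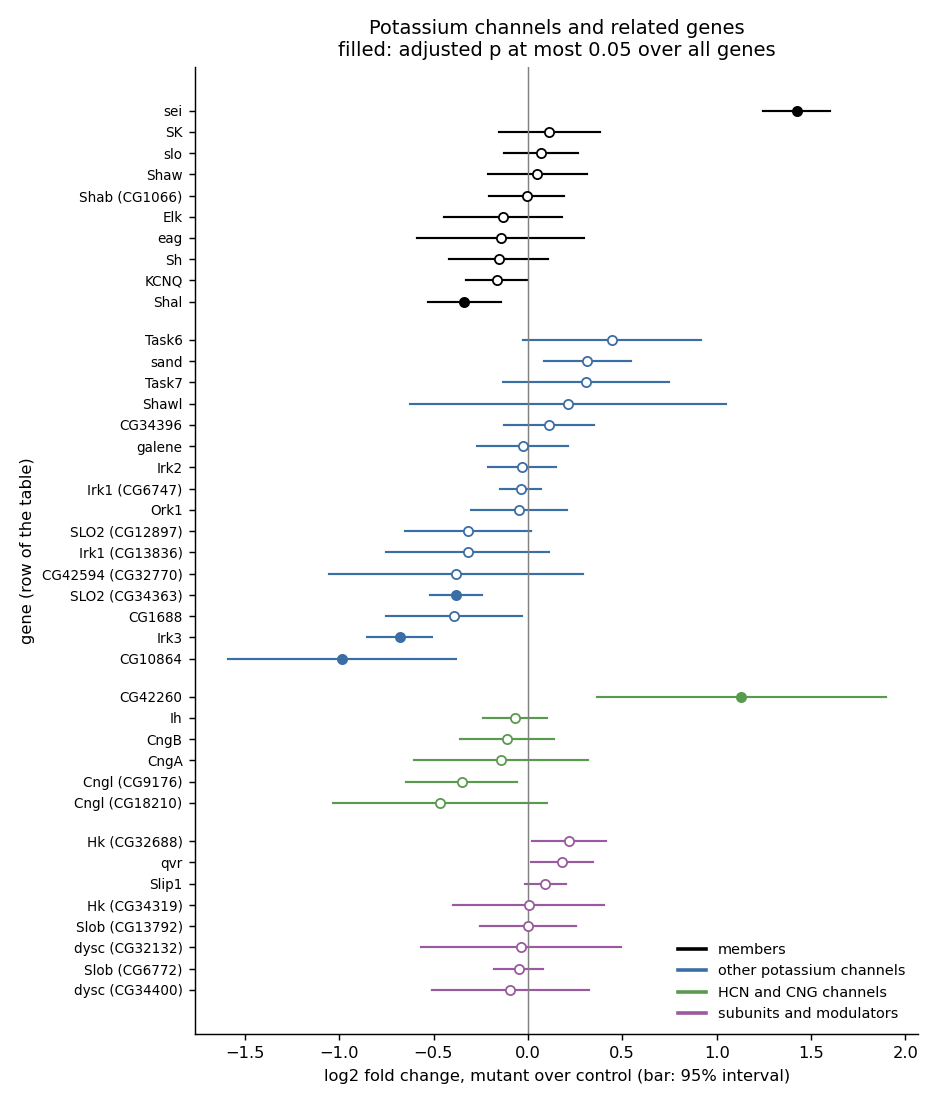
Log2 fold change (mutant over control) with 95% intervals for the 10 members (black) and for 3 lists of related genes (other potassium channels in blue, hyperpolarization-activated and cyclic nucleotide-gated channels in green, subunits and modulators in purple). Filled points passed an adjusted p of 0.05 over all genes. sei at 1.42 has the highest value shown, with the wide interval of the low-count CG42260 reaching past it.

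Other ion transport genes are read against the same shares over all genes, 11.1% lower and 8.46% higher. Of 13 sodium and calcium channel genes 1 fell, Ca-alpha1T, a T-type calcium channel gene, from 14.7 ± 0.706 to 11.3 ± 1.71 CPM (adjusted p 0.0290, edgeR). That call was lost with the length offset (0.282) and without control replicate 1, 2 or 3 or mutant replicate 1 or 4 (0.0505 to 0.0744, edgeR). The sodium channel gene para was at 2.89 to 3.36 CPM in the controls and 2.20 to 4.18 CPM in the mutants. Of 6 genes of potassium pumps and cotransporters 1 fell, Ncc69, from 59.2 ± 3.48 to 50.3 ± 4.01 CPM (adjusted p 0.0287, edgeR), a call that was lost without control replicate 1, 3 or 4 or mutant replicate 2, 3 or 4 (0.0588 to 0.0734), with the length offset (0.218) and with upper quartile scaling (0.0562, edgeR). None of 10 other genes of a list on seizure sensitivity, such as eas, tko, jus and kcc, passed with edgeR, and 0 had an unadjusted p under 0.05. Their log2 fold changes were -0.24 to 0.20. With DESeq2 the sodium pump gene Atpalpha, which is on this list and on that of the pumps, was called lower (log2 fold change -0.07, adjusted p 0.0329). The length offset called 2 sodium and calcium channel genes higher, NaCP60E and Ca-alpha1D (adjusted p 0.0172 and 0.00476, edgeR).

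Markers of neurons, glia and muscle, which express such channels, had median log2 fold changes of -0.02, 0.09 and 0.09. The summed level of 18 neuron markers was 825 to 897 CPM in the controls and 803 to 924 CPM in the mutants. That sum rests mostly on unc-13, Csp and cpx (control means 231, 214 and 123 CPM). Of the 18 markers, 2 were called higher and 3 lower (edgeR), where 8.46% and 11.1% of all tested genes were. The same shares apply to the glia, muscle and ovary markers below. The presynaptic genes Snap25 and Syn rose by 0.37 and 0.36 on the log2 scale, whereas brp, futsch and Csp fell by 0.51, 0.29 and 0.18. The calls of brp and futsch were lost with the length offset (adjusted p 0.114 and 0.979), that of brp also without control replicate 3 or 4 or mutant replicate 3 (0.0516 to 0.0690), and that of Snap25 without mutant replicate 3 (0.0628, edgeR). With the length offset 5 neuron markers were higher and 1 lower. Those gained were Syt1, cpx and unc-13 (adjusted p 0.0237, 0.00624 and 0.0282, edgeR), and cpx also passed with the replicate block (0.00907, edgeR). The 8 glia markers summed to 413 to 506 CPM in the controls and 430 to 484 CPM in the mutants, and wrapper rose by 0.50 on the log2 scale, a call that was lost without control replicate 1, 3 or 4 or mutant replicate 2, 3 or 4 (adjusted p 0.0541 to 0.105, edgeR), with no filter (0.0526), with the length offset (0.0597) and with DESeq2 (0.0572). DESeq2 called 0 glia markers higher and 1 lower, Eaat1 (adjusted p 0.0454).

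The 14 muscle markers summed to 3231 to 3903 CPM in the controls and 3501 to 3795 CPM in the mutants. Of these, 5 rose and 3 fell (edgeR), where 8.46% and 11.1% of all tested genes did. Those that rose were Act88F, Act57B, Mlc2, wupA and Mlc1. Mlc2 rose from 275 ± 16.1 to 342 ± 15.6 CPM (adjusted p 0.00266, edgeR). wupA rose from 136 ± 14.4 to 171 ± 9.96 CPM (adjusted p 0.0126, edgeR), and both calls were kept in every alternative. Mlc1 rose from 141 ± 12.1 to 170 ± 10.8 CPM (adjusted p 0.0187, edgeR). Its call was lost without control replicate 3 or 4 (0.0560 and 0.0511, edgeR). Besides Act79B, the fallen ones were Tm1 and sls. The call of Tm1 was lost with the length offset (adjusted p 0.787, edgeR). That of sls was lost without control replicate 1, 2 or 3 or mutant replicate 1, 2 or 4 (0.0866 to 0.108), with no filter (0.0654) and with upper quartile scaling (0.0963), and its sign turned with the length offset (log2 fold change 0.19, edgeR). The count of fallen muscle markers was 1 with the length offset, without control replicate 3 and without mutant replicate 4. The count of risen ones was 7 with upper quartile scaling, where bt and Tm2 were gained. It was 6 with the length offset, with the replicate block, and without control replicate 1 or mutant replicate 1. Without control replicate 3 or 4 it was 4. The actin genes went both ways, with Act88F rising from 10.3 ± 2.54 to 20.1 ± 4.52 CPM and Act57B from 403 ± 48.4 to 554 ± 40.4 CPM, while Act79B fell from 74.2 ± 10.1 to 57.8 ± 3.53 CPM, a call lost without control replicate 3 or mutant replicate 4 (adjusted p 0.0568 and 0.0515, edgeR). Among 9 ovary germline markers, yl, the yolk receptor gene, fell from 1915 ± 203 to 1172 ± 216 CPM and bam rose from 21.0 ± 4.64 to 29.0 ± 2.21 CPM. The call of bam was lost without any library but control replicate 4 (adjusted p 0.0556 to 0.107, edgeR), with no filter (0.0549) and with the length offset (0.0661). The summed level was 4181 to 5044 CPM in the controls and 3649 to 4121 CPM in the mutants. Without yl the other 8 markers summed to 2500.1 to 2870 CPM and 2631 to 2799 CPM, ranges that overlap, and the median log2 fold change of the list was 0.04. Without mutant replicate 2, the counts higher and lower were 1 and 1 for the channel members, 0 and 2 for the other potassium channels, 2 and 3 for neuron and 5 and 2 for muscle markers. The part of these tissues in the values of the channels was not tested.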

How the data were processed

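The authors deposited 1 table of whole-number read counts per gene for 8 libraries, not normalized. The submitters' processing notes name the build dm3 and DESeq with no role, and neither the aligner and counter nor the annotation and strand setting is given in the sources used here. Of 12083 rows, 1 names no gene (0.0154% to 0.0176% of counts) and was left out. Rows were named through the RefSeq table of Release 6 (11482 by locus tag, 449 by an older name, 91 ambiguous and 60 unmatched kept their number). Since that build is not dm3, it gave only arms, neighbours and, through the Ensembl annotation of the same assembly, exonic lengths, and no coordinates are given. Groups and replicate numbers come from the titles, and no column was left unmapped. The labels name separate collections for each library, and replicate pairs differed beyond sampling noise (chi-square per degree of freedom 10.8 to 37.4).

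Counts were filtered with edgeR's filterByExpr (minimum count 10), leaving 10525 genes, scaled with TMM, and tested two-sided by the quasi-likelihood method of edgeR with robust dispersions, adjusted with the Benjamini-Hochberg method at 0.05 (R 4.3.3, edgeR 4.0.16, limma 3.58.1, DESeq2 1.42.0; Python 3.11.15, pandas 2.3.3 and matplotlib 3.10.9 for tables and plots). Standard errors divide the size of the log2 fold change by the square root of F, 95% intervals are unadjusted, and the script was tested on simulated data. The floor of 3 counts covers counting error only.

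The members and gene lists were chosen with earlier results of these data known. The named genes are the members, the rows of the potassium channel lists, the called rows of each other list (up to 6 were planned, and all are given), and Hr78. The neighbours of sei and the genes within members were added by their place in the annotation. CG43155 of the other potassium channels and sda of the seizure-sensitivity list are not analysed here. The alternatives were other scalings, no filter, DESeq2, the replicate number as a block, an offset with a loess trend (span 0.5) on exonic length, and leaving out each library. Summing overlapping rows was added after seeing the data.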

Additional observations from a re-analysis of the deposited data

Results flagged for a closer look

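In 4 of 118 groups of 4 libraries, 1 library lay far from the other 3 of its genotype by Dixon's test, which flags about 1 group in 20 by chance. Elk was at 3.24 CPM in mutant replicate 4, against 2.49 to 2.57 CPM in the other mutants. Sh was at 6.01 CPM in control replicate 3, against 4.85 to 5.01 CPM in the other controls. slo was at 25.1 CPM in control replicate 2, against 31.9 to 32.4 CPM in the other controls. The muscle gene sls was at 302 CPM in control replicate 4, against 340 to 348 CPM in the other controls.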

How the results depend on the processing

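sei kept its direction and its call in all 15 alternatives (log2 fold change 1.24 to 1.47, the lowest with ppk29 summed in). The members called numbered 2, and 1 to 2 when 1 library was left out. With the length offset 1 member was called, 16 rows of the related lists were higher and 6 lower (10 and 12 in the reported fit), and 780 of all genes were lower. Leaving out 1 library gave 6 to 10 higher and 6 to 10 lower rows of those lists. Over all genes 890 were higher and 1173 lower (43.1% higher), against 1499 higher and 872 lower with upper quartile scaling (63.2% higher). The settings moved the median of all genes to at most 0.06. Deviations of same-numbered libraries of the 2 genotypes correlated at r = 0.21, -0.05, -0.10 and 0.04, against -0.20 to 0.23 over all pairs of a control and a mutant library. These values show no clear pairing by number, and a batch shared by number was not tested. With the replicate block 1014 genes were higher and 1391 lower, and sei was at 1.43 and Shal at -0.34. In the lists qvr, cpx, Tm2 and the ovary marker grk were gained (adjusted p 0.0322, 0.00907, 0.0200 and 0.0474, edgeR). The calls of CG10864, CG42260 and wrapper were lost.

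Small values that passed in no fit changed sign, and the cause was not tested. With the length offset these were eag (0.037), Sh (0.12), Shab (0.19), Ork1 (0.024), dysc (0.14 for CG32132 and 0.085 for CG34400), Irk1 (0.054), Slob (0.088 for CG6772) and Ih (0.14), besides the called sls (0.19, from -0.21). With upper quartile scaling they were Shab (0.039), Ork1 (0.00063), dysc (0.0085), Irk2 (0.016), Irk1 (0.0078) and galene (0.018). Slob (CG13792) and Hk (CG34319) lay at 0 within 0.01 and turned to -0.0032 and -0.00018 with RLE scaling, to -0.0034 and -0.0026 with the replicate block, and to -0.0036 and -0.0018 with DESeq2, and Slob to -0.0012 without a filter. Leaving out 1 library gave ranges across 0 for Slob (-0.063 to 0.066), Ork1 (-0.14 to 0.048), Irk2 (-0.077 to 0.067), Shab (-0.057 to 0.042), slo (-0.013 to 0.098), Shaw (-0.032 to 0.12), Hk (-0.089 to 0.067), galene (-0.089 to 0.036), Shawl (-0.030 to 0.44) and dysc (-0.17 to 0.11 and -0.24 to 0.035). The lowest depth among the members is that of eag, with 39 to 65 counts in a library.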
